A study of Mus musculus with 3 samples.

Results

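FP1 was the largest of the 9 macrophage clusters that the authors called in single-cell RNA sequencing of injured mouse muscle. It held 1207 of the 4374 cells in the deposited annotation (27.6%). Its members were taken as all cells given the label FP1 in that annotation, and they were described against all cells with another label. FP1 comprised 99 cells of the library treated with urinary bladder matrix (UBM), 72 cells of the saline library and 1036 cells of the polycaprolactone (PCL) library, so 85.8% of it came from PCL. The label was drawn from the transcriptomes themselves, with the cells of all conditions pooled, so a gene that is higher in FP1 than in other cells describes the cluster and tests nothing.

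In the study, macrophages were sorted from the quadriceps of mice 1 week after volumetric muscle loss, an injury in which a piece of the muscle is removed. The defect received UBM, a decellularised extracellular matrix, or saline, or PCL, a synthetic polymer that stays in the tissue as a foreign body. Each condition was 1 droplet library made with a 3' kit that counts unique molecular identifiers (UMIs). The sources used here do not give the strain, sex or age of the mice, how many mice went into a library, or what the letters of the cluster names stand for.

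Macrophages that make osteopontin, the secreted matrix glycoprotein encoded by Spp1, are found at wounds, in fibrotic tissue and around implanted materials, where macrophages also attach to the implant, fuse into giant cells and release enzymes that digest matrix. Podoplanin, encoded by Pdpn, is a membrane mucin that binds the platelet receptor CLEC-2 and links the membrane to the actin skeleton. Caveolin-1, encoded by Cav1, coats the flask-shaped membrane pits called caveolae. Resident muscle macrophages are known instead for scavenger receptors such as CD163, the hyaluronan receptor LYVE1 and the mannose receptor MRC1.

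With 1 library per condition there was no replicate, and no test between conditions was made. Levels are UMIs of a gene per 1000000 UMIs, both summed over the cells of a group (CPM), and every interval is an exact 95% interval that covers counting error only. The level that 3 counts would give is taken as the floor of a count of 0. For any gene given as 0 in FP1 it is 3.78 CPM in UBM, 6.14 CPM in saline and 0.46 CPM in PCL. An exact upper limit is printed for some counts of 0 only. FP1 summed to 793364 UMIs in UBM, 488438 in saline and 6522238 in PCL. The median FP1 cell held 5618, 5364 and 5530 UMIs in UBM, saline and PCL, against 5462, 4389 and 5891 in the other cells. The median mitochondrial share of UMIs was 2.76, 3.20 and 3.65% in FP1 and 2.37, 3.27 and 3.26% in the other cells, and the median share of ribosomal protein genes was 17.7, 15.9 and 12.1% in FP1 and 20.1, 14.8 and 12.2% in the other cells. Scrublet called 1, 8 and 6 doublets in UBM, saline and PCL, with 0, 3 and 2 of them in FP1. It marked 0.0439% of UBM and 0.342% of PCL cells, so it cannot be taken to have worked there, and no cell was removed. Libraries shared 6 barcodes, of which 2 involved an FP1 cell.

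The FP1 cells of the UBM and saline libraries stood apart from those of PCL. When all cells were clustered anew at a Leiden resolution of 0.8, 1 large cluster was mostly FP1, with 897 cells of which 91.2% were FP1. It took in 76.9% of PCL FP1 cells (74.2 to 79.5%), 11.1% of UBM FP1 cells (5.68 to 19.0%) and 13.9% of saline FP1 cells (6.87 to 24.1%). A further 233 FP1 cells, among them 20.1% of the PCL ones (17.7 to 22.6%) and 31.9% of the saline ones (21.4 to 44.0%), fell in a cluster made mostly of F1. At a resolution of 0.6, chosen after seeing the data because it gave 9 clusters as the authors have, 96.9% of PCL FP1 cells (95.7 to 97.9%) fell in 1 new cluster that was 89.9% FP1, with 12.1% of UBM FP1 cells (6.42 to 20.2%) and 31.9% of saline FP1 cells (21.4 to 44.0%). At that setting 46.5% of UBM FP1 cells (36.4 to 56.8%) went to a cluster made mostly of cells labelled RP2, and 47.2% of saline FP1 cells (35.3 to 59.3%) to one made mostly of R3. At both settings a smaller share of UBM and saline than of PCL FP1 cells was found together again, and the counts of genes over the cells that clustered together again are given at the end.

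**Figure D1:**
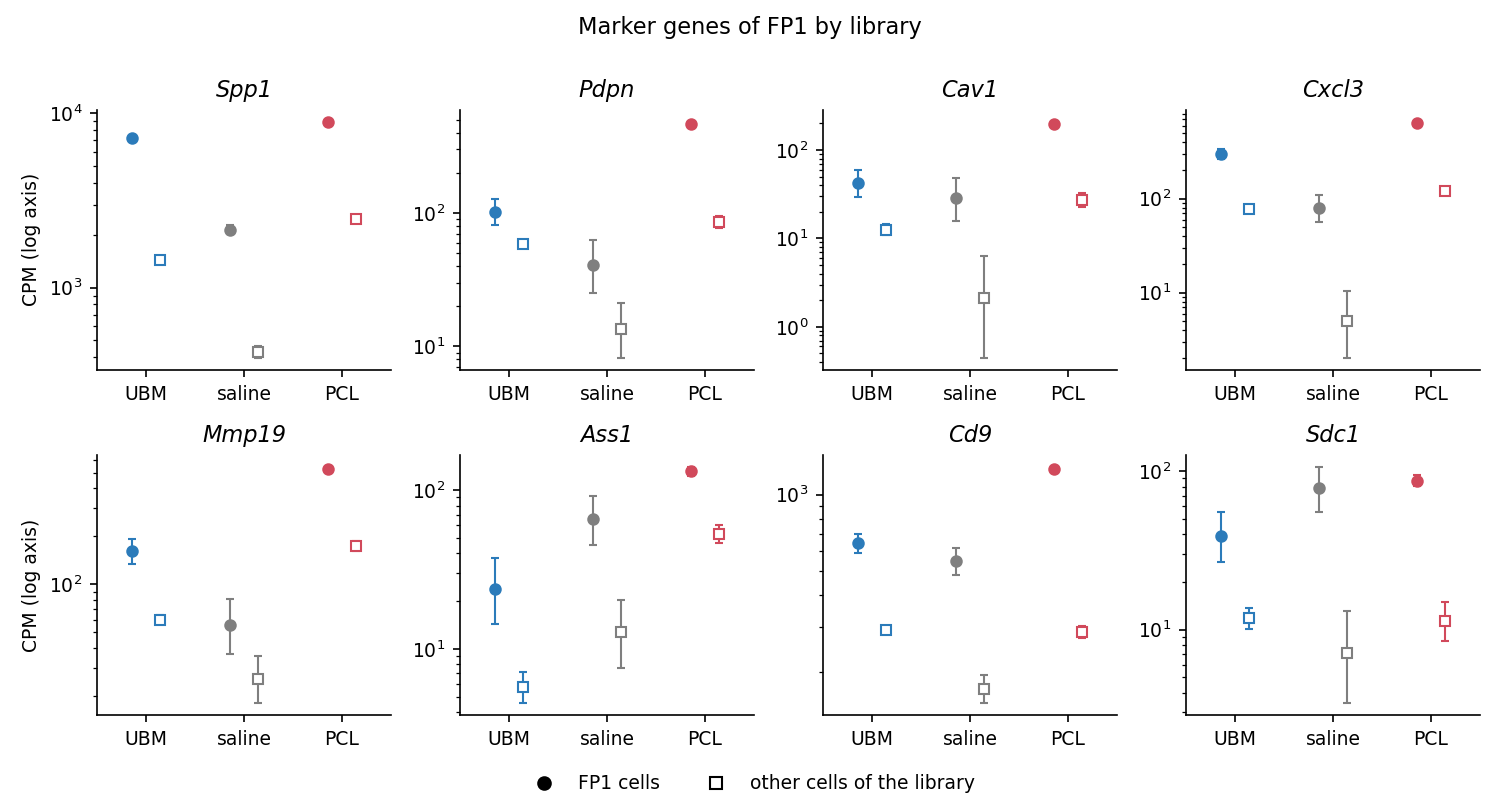
Levels of the 8 FP1 marker genes in CPM (log axis) for FP1 cells (filled circles) and all other cells (open squares) of each library, with bars for exact 95% Poisson intervals. FP1 lay above the other cells of its own library for all 8 genes in all 3 libraries, and among the FP1 groups that of PCL held the highest level of each.

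The 8 markers of FP1 were higher in FP1 than in the other cells of the same library, in every library. Spp1 stood at 7202 CPM in UBM, 2154 CPM in saline and 8918 CPM in PCL, against 1444, 426 and 2483 CPM in the other cells. This was 4.99-fold (4.84 to 5.14), 5.05-fold (4.56 to 5.59) and 3.59-fold (3.52 to 3.67) higher. The UBM and saline levels leaned on few cells, since 1 cell held 32.9% of the UBM and 64.3% of the saline Spp1 UMIs of FP1, and without it the levels were 4900 and 793 CPM. Pdpn stood at 102, 40.9 and 468 CPM in FP1 of UBM, saline and PCL and at 58.3, 13.6 and 85.4 CPM in the other cells, which was 1.75-fold (1.38 to 2.20), 3.02-fold (1.53 to 5.97) and 5.47-fold (4.92 to 6.10) higher. Cav1 stood at 42.9, 28.7 and 199 CPM against 12.6, 2.14 and 27.2 CPM. The Cav1 ratio was 3.40 (2.28 to 4.93) in UBM and 7.32 (6.08 to 8.89) in PCL, and in saline, where the other cells held 3 UMIs, it was 13.4 with an interval of 3.73 to 72.6.

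The other markers have roles in cell recruitment, matrix turnover, metabolism and adhesion. Cxcl3, a chemokine that attracts neutrophils through CXCR2, stood at 299, 79.8 and 643 CPM in FP1 of UBM, saline and PCL against 76.9, 5.0 and 122 CPM in the other cells. Mmp19, a secreted matrix metalloproteinase, stood at 161, 55.3 and 527 CPM against 60.2, 25.7 and 174 CPM, and 48.1% of its saline UMIs lay in 1 cell, without which the saline level was 29.0 CPM. Ass1, the enzyme that joins citrulline and aspartate on the way to arginine, stood at 23.9, 65.5 and 132 CPM against 5.73, 12.9 and 53.1 CPM. Cd9, a tetraspanin that takes part in macrophage fusion, stood at 644, 547 and 1263 CPM against 291, 171 and 286 CPM. Sdc1, the heparan sulphate proteoglycan syndecan-1, stood at 39.1, 77.8 and 87.2 CPM against 11.8, 7.14 and 11.4 CPM. Across the markers the FP1 level was thus highest in PCL throughout, while the library with the lowest FP1 level was saline for Spp1, Pdpn, Cav1, Cxcl3, Mmp19 and Cd9 and UBM for Ass1 and Sdc1.

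Among clusters with at least 10 cells in a library, FP1 ranked first for every marker in every library, except for Pdpn and Cd9 in UBM, which makes 22 of 24 pairs of a marker and a library. Without the FP1 cell that held the most UMIs of the gene, and with the other clusters left whole, FP1 ranked first in 17 of the 24. It then fell below RP2 for Spp1 (793 against 1705 CPM) and Pdpn (33.4 against 38.8 CPM) and below R1 for Mmp19 (29.0 against 52.0 CPM) in saline, and below RP1 for Cxcl3 and R1 for Sdc1 in UBM. With all cells counted, in UBM Pdpn was higher in R2 at 127 CPM and Cd9 was higher in R3 at 671 CPM. The next cluster was often close: RP2 reached 7480 CPM of Spp1 in PCL and 1705 CPM in saline, and RP1 reached 269 CPM of Cxcl3 in UBM. The marker levels were therefore graded across clusters.

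Single cells did not separate on any marker alone. Spp1 was detected in 99.2% of PCL FP1 cells (98.5 to 99.7%) and in 97.9% of the other PCL cells (96.6 to 98.8%), and after thinning every cell to 2500 UMIs the shares were 97.8 and 93.1%. In PCL at least 96.7% of the cells of each cluster held an Spp1 UMI, which is the share in RP3, whose median depth of 5580 UMIs was close to the 5530 of FP1. Free RNA in the droplets was not measured here and no cell type that should lack Spp1 was at hand, so these shares in PCL are not read as expression. The amount in PCL was higher in FP1: the median FP1 cell had 40.7 Spp1 UMIs per 10000 UMIs and the median other cell 11.7, and among the FP1 cells 10% lay under 8.73 and 10% over 221. Spp1 was detected in 73.7% of UBM FP1 cells (63.9 to 82.1%) and 58.3% of other UBM cells (56.2 to 60.4%), and in 58.3% of saline FP1 cells (46.1 to 69.8%) and 31.6% of other saline cells (26.1 to 37.5%).

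Pdpn and Cav1 were found in fewer cells. Pdpn was detected in 36.4% of UBM FP1 cells, 16.7% of saline FP1 cells and 68.9% of PCL FP1 cells, against 19.9, 5.58 and 24.7% of the other cells. Thinned to the same depth, these shares were 20.5, 7.27 and 51.5% in FP1 and 10.3, 3.91 and 13.95% in the other cells. Cav1 was detected in 17.2, 8.33 and 46.4% of FP1 cells of UBM, saline and PCL against 5.41, 0.743 and 11.99% of the other cells, and in 9.26, 4.37 and 30.1% against 2.74, 0.367 and 5.67% after thinning. In PCL, Pdpn was detected in 27.2% of RP3 cells and Cav1 in 4.35%, or 13.4 and 2.22% after thinning. Thinning left out 10, 13 and 90 FP1 cells below 2500 UMIs in UBM, saline and PCL.

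Taking the 8 markers together, 82.8% of PCL FP1 cells held at least 4 of them, against 36.4% of UBM FP1 cells and 18.1% of saline FP1 cells. In the other cells the shares were 8.30% in UBM, 2.23% in saline and 32.5% in PCL. Thinned, they were 15.5, 6.68 and 60.03% in FP1 and 1.54, 0.624 and 9.96% in the other cells. The other cells of PCL thus carried 4 markers about as often as FP1 cells of UBM did before thinning. Single clusters of PCL lay closer to FP1 than the other cells as a whole. At least 4 markers were held by 56.8% of RP1, 55.2% of RP2 and 28.8% of F1 cells, or 35.1, 26.6 and 6.87% after thinning. In saline, thinned FP1 and RP2 cells both held a mean of 1.44 markers.

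Beyond the markers, 2680 genes reached a mean of 50 CPM over the 3 libraries in FP1 or in the other cells. Of these, 13 were at least 2-fold higher in FP1 in every library (0.485%), on a scale of log2 ratios with 10 CPM added to each level. They were Mmp12, Cxcl3, Spp1, Sdc1, Cav1, Ctsk, Cd9, Actn1, Mmp14, Ass1, Txn1, Alas1 and Myo1e, of which the last 3 lie outside the rule by which genes are named here and complete the list. Without the FP1 cell that held the most UMIs of the gene in each library, 9 of the 13 kept the 2-fold in every library. Spp1, Actn1 and Alas1 fell under it in saline, with log2 ratios of 0.88, 0.96 and 0.95, and Mmp12 in UBM at 0.95. At least 2-fold lower in every library were 38 genes (1.42%). With no minimum size, 956 genes were higher in FP1 in all 3 libraries (35.7%) and 647 were lower in all 3 (24.1%).

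**Figure D2:**
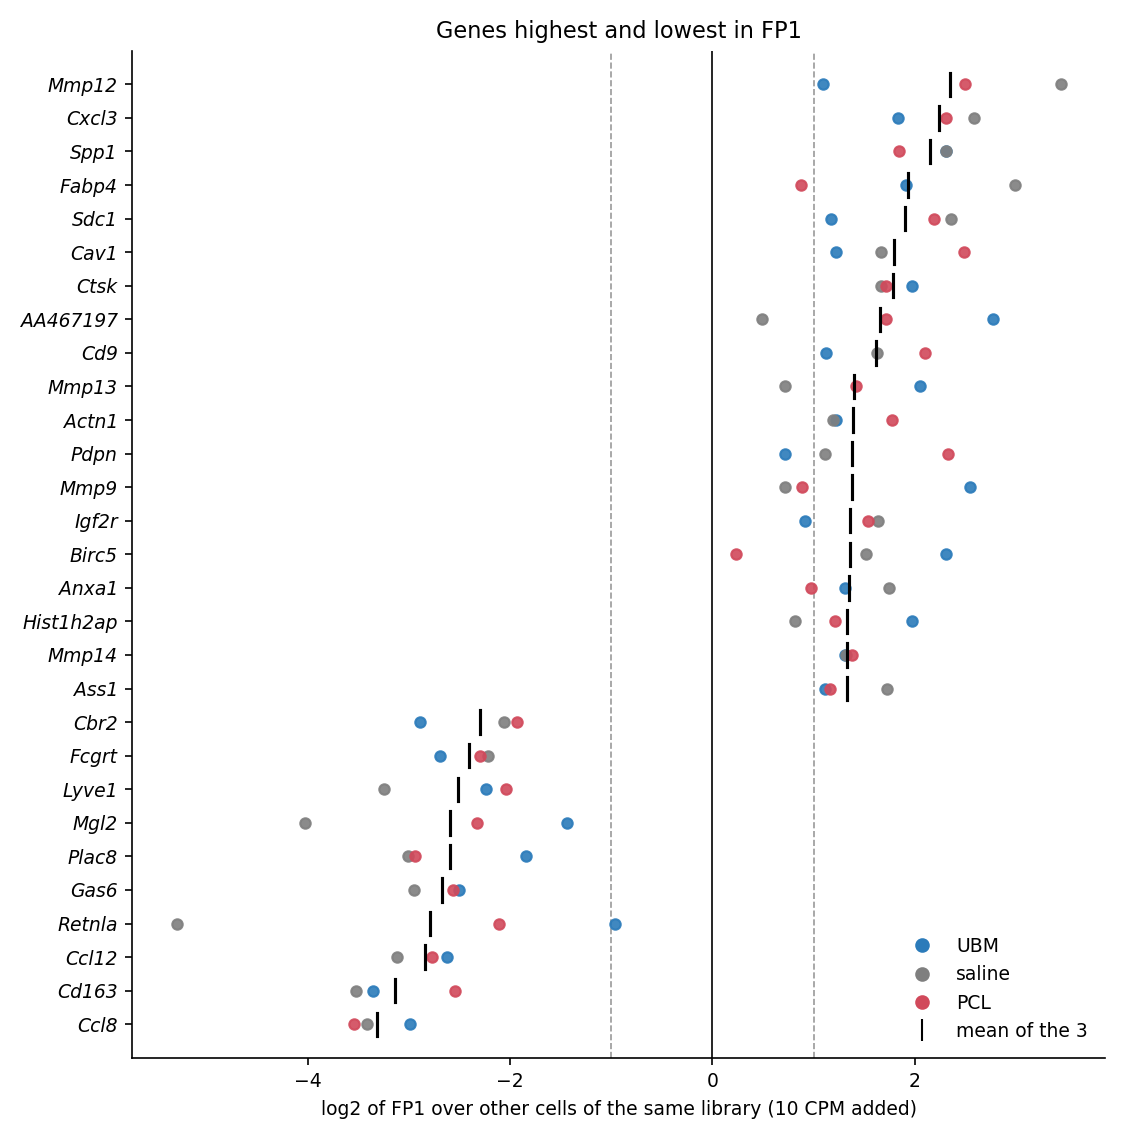
Log2 ratio of FP1 over the other cells of the same library for the 20 named genes farthest above (1 of them is not shown) and the 10 farthest below the other cells by the mean of the 3 libraries (black tick), with dashed lines at 2-fold. The saline points lie farthest out for Mmp12 and Retnla, and the 10 lowest genes lie below zero in every library.

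Enzymes that cut matrix led the genes higher in FP1. Mmp12, macrophage elastase, had the highest mean log2 ratio of all named genes at 2.34. It stood at 2302, 471 and 1057 CPM in FP1 of UBM, saline and PCL and at 1072, 34.3 and 179 CPM in the other cells, which was 2.15-fold (2.04 to 2.25), 13.7-fold (10.0 to 19.2) and 5.90-fold (5.49 to 6.36) higher. FP1 of UBM held the most Mmp12 of the FP1 groups, and the other cells of UBM already stood above FP1 of saline and level with FP1 of PCL. Mmp14, the membrane-bound collagenase, was alike in its ratio across libraries, at 80.7, 127 and 188 CPM against 26.6, 45.0 and 66.5 CPM. Ctsk, the collagen-degrading protease cathepsin K, stood at 355, 30.7 and 119 CPM against 83.2, 2.86 and 29.4 CPM. Mmp13, a collagenase, stood at 290, 12.3 and 92.1 CPM against 62.2, 3.57 and 28.3 CPM. Mmp9, gelatinase B, stood at 247, 45.0 and 32.0 CPM against 34.1, 23.6 and 12.7 CPM, but 90.9% of its saline UMIs lay in 1 cell and the saline level without that cell was 4.13 CPM, below that of the other cells.

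The list of matrix proteases and inhibitors had 14 members at 10 CPM or more, of which 10 were higher in FP1 in every library and 2 were at least 2-fold higher in every library, with a median log2 ratio of 0.77. Over all 8199 genes at that minimum the median was 0.04, and 0.195% of them passed 2-fold upwards and 0.524% downwards in every library. With no minimum size, 26.3% of these 8199 genes were higher and 21.2% lower in every library, and the counts of list members that follow stand against these shares. Several lists hold FP1 markers, such as Mmp19 in this one. Cav1 and Pdpn are among the membrane scaffolds, Sdc1 among the integrins and Spp1 among the matrix proteins. Cd9 is listed under tetraspanins and fusion, Cxcl3 under CXC chemokines and Ass1 under arginine metabolism. The counts and medians of these lists rest in part on those markers. Timp2, an inhibitor of metalloproteinases, went the other way, at 529, 473 and 260 CPM in FP1 of UBM, saline and PCL against 911, 674 and 382 CPM.

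Promoters of the 20 genes with the highest mean ratio and of Mmp19, the marker outside them, were looked up by symbol in RefSeq windows on GRCm38.p6 (250 bases before and 50 bases after each annotated start, 300 bases in all). Of the 21 genes, 16 had a window. The AP-1 motif TGANTCA, read on both strands, was in 3 of the 16 genes (18.8%): AA467197, Mmp12 and Mmp13. Over all 27025 genes with a window the share was 8.97%. The NF-kB motif, GGGAN followed directly by TTTCC, was in 2 genes (12.5%), Birc5 and Cxcl3, against 0.466% of all genes. The hypoxia response core NCGTG was in 11 of the 16 genes (68.8%) against 64.2% of all genes. The 3 windows shown belong to a pair of metalloproteinases and to the chemokine of the marker set, and the motif stands in capitals. It begins 44 bases before the start in Mmp12 (chr9:7347124-7347423, plus strand, the annotated window of the gene that holds the motif), 35 bases before it in Mmp13 (chr9:7272264-7272563, plus strand) and 73 bases before it in Cxcl3 (chr5:90785851-90786150, plus strand). A match is a run of letters and not a site shown to be bound.
Mmp12: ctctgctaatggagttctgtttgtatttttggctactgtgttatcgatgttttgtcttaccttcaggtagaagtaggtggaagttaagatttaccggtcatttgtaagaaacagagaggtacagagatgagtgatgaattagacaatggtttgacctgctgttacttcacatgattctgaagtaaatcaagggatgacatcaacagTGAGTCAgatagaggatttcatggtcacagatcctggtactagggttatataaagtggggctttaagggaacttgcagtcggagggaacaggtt
Mmp13: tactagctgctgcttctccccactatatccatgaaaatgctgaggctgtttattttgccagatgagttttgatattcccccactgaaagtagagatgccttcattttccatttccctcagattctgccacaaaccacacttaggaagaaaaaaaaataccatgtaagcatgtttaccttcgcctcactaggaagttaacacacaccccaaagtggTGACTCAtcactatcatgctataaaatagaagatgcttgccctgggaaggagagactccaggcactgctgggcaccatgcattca
Cxcl3: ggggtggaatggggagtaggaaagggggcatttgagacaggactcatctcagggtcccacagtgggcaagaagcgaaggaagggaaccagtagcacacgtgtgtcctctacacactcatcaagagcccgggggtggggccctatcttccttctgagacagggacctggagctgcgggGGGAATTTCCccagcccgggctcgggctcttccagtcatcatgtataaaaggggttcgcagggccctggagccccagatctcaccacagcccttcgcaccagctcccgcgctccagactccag

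Genes of caveolae and membrane scaffolds were also mostly higher in FP1. Of the 15 measured, 13 were higher in FP1 in every library, with a median log2 ratio of 0.56. The FP1 markers Cav1 and Pdpn had the highest ratios of the list. Of the 15, 1 was at least 2-fold higher in every library, and it was Cav1. Anxa2 and Anxa5 were among the 13, at 1501, 805 and 1945 CPM against 988, 539 and 1128 CPM for Anxa2. Actn1, an actin-bundling protein, stood at 134, 38.9 and 92.8 CPM in FP1 of UBM, saline and PCL against 51.8, 11.4 and 20.1 CPM in the other cells. Anxa1, a phospholipid-binding protein, stood at 1549, 1153 and 1101 CPM against 617, 336 and 555 CPM. Ptrf, the cavin that coats caveolae together with caveolin, stayed near the lowest levels that can be measured here, at 18.9, 12.3 and 12.9 CPM against 12.3, 9.29 and 4.01 CPM.

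Integrins and matrix receptors were mixed, with 9 of 17 higher in every library and a median of 0.38. Itgax, the integrin alpha chain CD11c, stood at 228, 96.2 and 88.2 CPM in FP1 against 77.2, 74.3 and 17.8 CPM in the other cells of UBM, saline and PCL. Itga5, the alpha chain of a fibronectin receptor, stood at 54.2, 30.7 and 78.0 CPM in FP1, with log2 ratios of 0.93, 0.44 and 1.10 over the other cells. Cd44, a receptor for hyaluronan and osteopontin, stood at 488, 426 and 1040 CPM against 317, 390 and 614 CPM. Among secreted matrix proteins 5 of 11 were higher in every library, with a median of 0.08. Fn1, fibronectin, stood at 1734, 643 and 2453 CPM against 1080, 458 and 749 CPM, and was 3.27-fold (3.15 to 3.40) higher in PCL but 1.40-fold (1.22 to 1.61) in saline. Lgals3, galectin-3, stood at 6810, 5264 and 5324 CPM against 4675, 1545 and 2600 CPM. Fibrillar collagen genes were low in FP1 and in the other cells alike: Col1a1 stood at 8.82, 16.4 and 15.6 CPM against 7.98, 15.7 and 18.3 CPM.

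Genes of macrophage fusion and giant cells were higher in FP1 in every library for 8 of 15 measured members, with a median of 0.49. Dcstamp, the membrane protein required for fusion of osteoclasts and giant cells, stood at 3.78 CPM in UBM (3 UMIs), 6.14 CPM in saline (3 UMIs) and 12.1 CPM in PCL, against 9.43, 4.29 and 1.56 CPM. Cd36, a scavenger receptor that is also listed here, stood at 895, 303 and 1030 CPM against 601, 134 and 318 CPM. Cd81, a tetraspanin related to Cd9, was lower in FP1, at 73.1, 209 and 56.7 CPM against 172, 364 and 118 CPM. Over the 12 tetraspanins, 4 were higher in every library and 3 lower, with a median of -0.03. Cd63, of lysosome and exosome membranes, was higher at 1780, 1611 and 1559 CPM against 1341, 769 and 929 CPM.

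Lipid handling genes of the kind known from Trem2-dependent macrophages were more often higher than lower. Of 18 measured, 11 were higher in FP1 in every library and 1 was lower (median 0.41). Among those higher was Lpl, which frees fatty acids from lipoproteins, at 2008, 938 and 1427 CPM against 1193, 331 and 442 CPM in the other cells of UBM, saline and PCL. Fabp5, a fatty acid carrier, stood at 2292, 1818 and 1084 CPM against 1639, 504 and 594 CPM. Its relative Fabp4 stood at 281, 172 and 95.5 CPM against 67.1, 12.9 and 47.5 CPM, with 59.5% of its saline UMIs in 1 cell and 73.2 CPM without it. Trem2, the lipid receptor itself, was lower in FP1 of UBM and higher in FP1 of the other libraries, at 752, 532 and 507 CPM against 906, 431 and 308 CPM. Apoe, the main lipid carrier secreted by macrophages, was at least 2-fold lower in FP1 in every library, at 3354, 11866 and 5533 CPM against 9751, 24538 and 11629 CPM.

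Antioxidant genes had 7 of 14 members higher in FP1 in every library, with a median of 0.52. Prdx1, a peroxiredoxin, stood at 2085, 1853 and 4585 CPM against 1371, 768 and 2267 CPM in the other cells of UBM, saline and PCL. Txnrd1, thioredoxin reductase, stood at 76.9, 121 and 161 CPM against 43.9, 51.4 and 75.2 CPM. Hmox1, which breaks down haem, was higher in FP1 in PCL alone: it stood at 362, 111 and 1401 CPM against 666, 240 and 1072 CPM. Of 26 genes of glycolysis and hypoxia, 10 were higher in every library with a median of 0.36, a share not far from the 26.3% of all genes at the list minimum and the 35.7% of those at 50 CPM. Vegfa, the vascular growth factor of that list, stood at 84.5, 86.0 and 165 CPM against 99.1, 30.0 and 59.99 CPM.

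In arginine metabolism 5 of 12 genes were higher in FP1 in every library, with a median of 0.28, which is again near the shares of all genes. Arg1, arginase 1, was alike in FP1 and the other cells of UBM at 2949 and 2975 CPM, a ratio of 0.992 (0.951 to 1.03). In saline it stood at 106 against 7.86 CPM and in PCL at 1512 against 507 CPM, or 2.98-fold (2.85 to 3.12) higher. Pooled over libraries its log2 ratio was -0.48, against a mean of 1.42 within libraries. Srm, spermidine synthase, stood at 88.2, 61.4 and 39.7 CPM against 28.1, 19.3 and 21.4 CPM in the other cells of UBM, saline and PCL. Among growth factors, Pdgfb, a mitogen for fibroblasts and pericytes, stood at 23.9, 40.9 and 25.6 CPM against 11.1, 5.71 and 6.47 CPM. Tgfb1 differed little between FP1 and the other cells, at 164, 227 and 218 CPM against 209, 246 and 208 CPM.

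Of the CC chemokines 10 of 12 were lower in every library, 3 of them at least 2-fold, with a median of -1.07. Of the CXC chemokines 4 of 10 were higher in every library, near the shares of all genes. Ccl8, a ligand of CCR2 and CCR8, had the lowest mean ratio of all named genes at -3.31. It stood at 1613, 158 and 139 CPM in FP1 of UBM, saline and PCL and at 12842, 1780 and 1723 CPM in the other cells, so that it was 7.96-fold (7.53 to 8.42), 11.3-fold (9.0 to 14.4) and 12.4-fold (11.6 to 13.3) lower in FP1. Ccl12, a further CCR2 ligand, stood at 89.5, 49.1 and 51.5 CPM against 603, 501 and 410 CPM. Ccl9 was the CC chemokine that stood highest by ratio, at 2821, 1374 and 3709 CPM against 2133, 1272 and 3121 CPM.

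The series title concerns macrophages that make interleukin-36 gamma, an interleukin-1 family cytokine encoded by Il1f9. Il1f9 was at 0 UMIs in FP1 of UBM and saline, with a floor of 3.78 and 6.14 CPM and exact upper limits of 4.65 and 7.55 CPM, and at 17 UMIs in 14 cells of PCL FP1, or 2.61 CPM. In the other PCL cells it stood at 22.1 CPM, 8.47-fold (5.03 to 15.1) higher, and in PCL cells labelled F2 at 371 CPM. Il1b, which encodes interleukin-1 beta, was lower in FP1 at 56.7, 418 and 434 CPM against 107, 905 and 1032 CPM in the other cells of UBM, saline and PCL, but with the libraries pooled its log2 ratio was 0.074. Its natural inhibitor, the receptor antagonist Il1rn, was higher in FP1 at 117, 321 and 471 CPM against 46.3, 151 and 262 CPM. Receptor genes were low: Il17ra stood at 7.56, 32.8 and 42.6 CPM in FP1, and Il1rl2, the receptor for interleukin-36, at 2.52, 4.09 and 3.68 CPM, the first 2 of these from 2 UMIs each.

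Of the lists measured, resident macrophage genes had the lowest median in FP1 against the other cells. Of 15 measured, 13 were lower in every library and 11 were at least 2-fold lower in every library, with a median of -1.89 (-1.66 with groups at 0 raised to 3 UMIs). Cd163, the haemoglobin scavenger receptor, stood at 25.2, 0 and 3.37 CPM in FP1 of UBM, saline and PCL against 349, 105 and 67.8 CPM, and was at least 17.1-fold lower in saline at a floor of 3 UMIs for the group. Lyve1 stood at 2.52, 0 and 3.68 CPM against 49.0, 85.0 and 46.4 CPM, at least 13.8-fold lower in saline at the same floor, while its UBM level rested on 2 UMIs (19.4-fold, interval 5.36 to 161). Gas6, a bridging ligand between dying cells and the receptors AXL and MERTK, stood at 30.3, 28.7 and 21.2 CPM against 219, 289 and 174 CPM. Mrc1 stood at 557, 152 and 256 CPM against 1203, 579 and 673 CPM. Fcgrt, the neonatal Fc receptor, was 7.37, 5.24 and 5.88-fold lower.

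Genes of alternative activation were lower in every library for 11 of 17, 5 of them at least 2-fold, with a median of -0.89 (-0.75 at the floor). Retnla, a secreted product of macrophages under interleukin-4, stood at 3779, 73.7 and 2.91 CPM in FP1 of UBM, saline and PCL against 7383, 3278 and 45.7 CPM. In UBM FP1, 46.3% of the Retnla UMIs lay in 1 cell and the level without it was 2081 CPM. Mgl2, a galactose-type lectin, stood at 136, 8.19 and 4.45 CPM against 386, 286 and 62.4 CPM.

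Antigen presentation by MHC class II, the display of peptides to helper T cells, was also lower. Of its 11 measured genes, 10 were lower in FP1 in every library and 4 at least 2-fold lower in every library, with a median of -1.13. H2-Ab1 stood at 611, 2938 and 1018 CPM in FP1 of UBM, saline and PCL against 1471, 6819 and 4701 CPM, or 2.41-fold (2.20 to 2.64), 2.32-fold (2.20 to 2.46) and 4.62-fold (4.49 to 4.75) lower. Interferon-induced genes were lower in every library for 20 of 24, with a median of -1.03. Isg15, a ubiquitin-like modifier, was 4.15-fold (2.60 to 7.02) lower in saline and 5.75-fold (5.18 to 6.39) lower in PCL, but stood at 58.0 against 55.0 CPM in UBM, where 1 cell held 56.5% of the FP1 UMIs.

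General macrophage genes were present in FP1 but mostly lower than in the other cells. Of 11 measured, 8 were lower in every library, 2 were higher and 0 passed 2-fold, with a median of -0.61. Cd68 stood at 764, 796 and 583 CPM in FP1 against 729, 493 and 537 CPM in the other cells of UBM, saline and PCL, and Lyz2, lysozyme, at 4270, 19396 and 17235 CPM against 6231, 18746 and 14920 CPM. Adgre1, the F4/80 antigen, was lower at 202, 332 and 218 CPM against 443, 441 and 351 CPM, and Csf1r, the receptor for colony-stimulating factor 1, at 247, 342 and 303 CPM against 386, 606 and 404 CPM. The summed level of the 11 macrophage markers was 11323 CPM, 29691 CPM and 23043 CPM in FP1 and 17666 CPM, 33629 CPM and 24998 CPM in the other cells. Ccr2, the receptor that brings monocytes out of blood, stood at 39.1, 221 and 157 CPM against 84.8, 433 and 496 CPM. Plac8, a gene of monocytes, stood at 21.4, 16.4 and 106 CPM against 103, 203 and 875 CPM.

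Markers of other cell types differed in level in FP1, with those of platelets and monocytes highest, and their part in the differences was not tested. Dendritic cell markers summed to 463, 364 and 333 CPM in FP1 of UBM, saline and PCL against 357, 618 and 474 CPM in the other cells. Neutrophil markers summed to 295, 119 and 419 CPM in FP1 of UBM, saline and PCL against 109, 301 and 3553 CPM in the other cells. Most of the UBM sum in FP1 was Mmp9 at 247 CPM. Ly6g was at 0 in FP1 of all 3 libraries, and Cxcr2, Retnlg and G0s2 were at 0 in UBM and saline. Muscle fibre markers summed to 12.6, 57.3 and 27.0 CPM against 50.2, 960.1 and 58.2 CPM, and fibroblast markers to 25.2, 49.1 and 78.5 CPM against 38.3, 53.6 and 91.4 CPM. T and NK cell markers summed to 74.4, 77.8 and 99.7 CPM against 79.1, 33.6 and 24.98 CPM, nearly all of it Il7r at 74.4, 75.8 and 99.2 CPM in FP1, while Cd3d, Nkg7 and Gzma were at 0 in FP1 of all libraries. Haemoglobin and other erythroid genes summed to 2.52, 4.09 and 283 CPM in FP1 against 3.55, 2.86 and 103 CPM, and 78.1% of the Hba-a1 UMIs and 58.1% of the Hbb-bs UMIs of PCL FP1 lay in 1 cell. Without the cell with the most erythroid UMIs the PCL sum was 98.4 CPM. Such UMIs were found in 2.02, 1.39 and 43.3% of FP1 cells of UBM, saline and PCL. Of the platelet markers, Ppbp stood at 132, 20.5 and 379 CPM in FP1 against 50.1, 8.57 and 215 CPM, and Pf4, which macrophages also make, at 4918, 1968 and 6367 CPM against 6351, 1337 and 4540 CPM. Itga2b, the platelet integrin, was at 0 in UBM and saline FP1. Monocyte markers summed to 2919, 1253 and 3419 CPM against 2129, 1804 and 3994 CPM. Of 20 measured genes that respond to tissue dissociation, 18 were lower in FP1 in every library, with a median of -0.56.

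**Figure D3:**
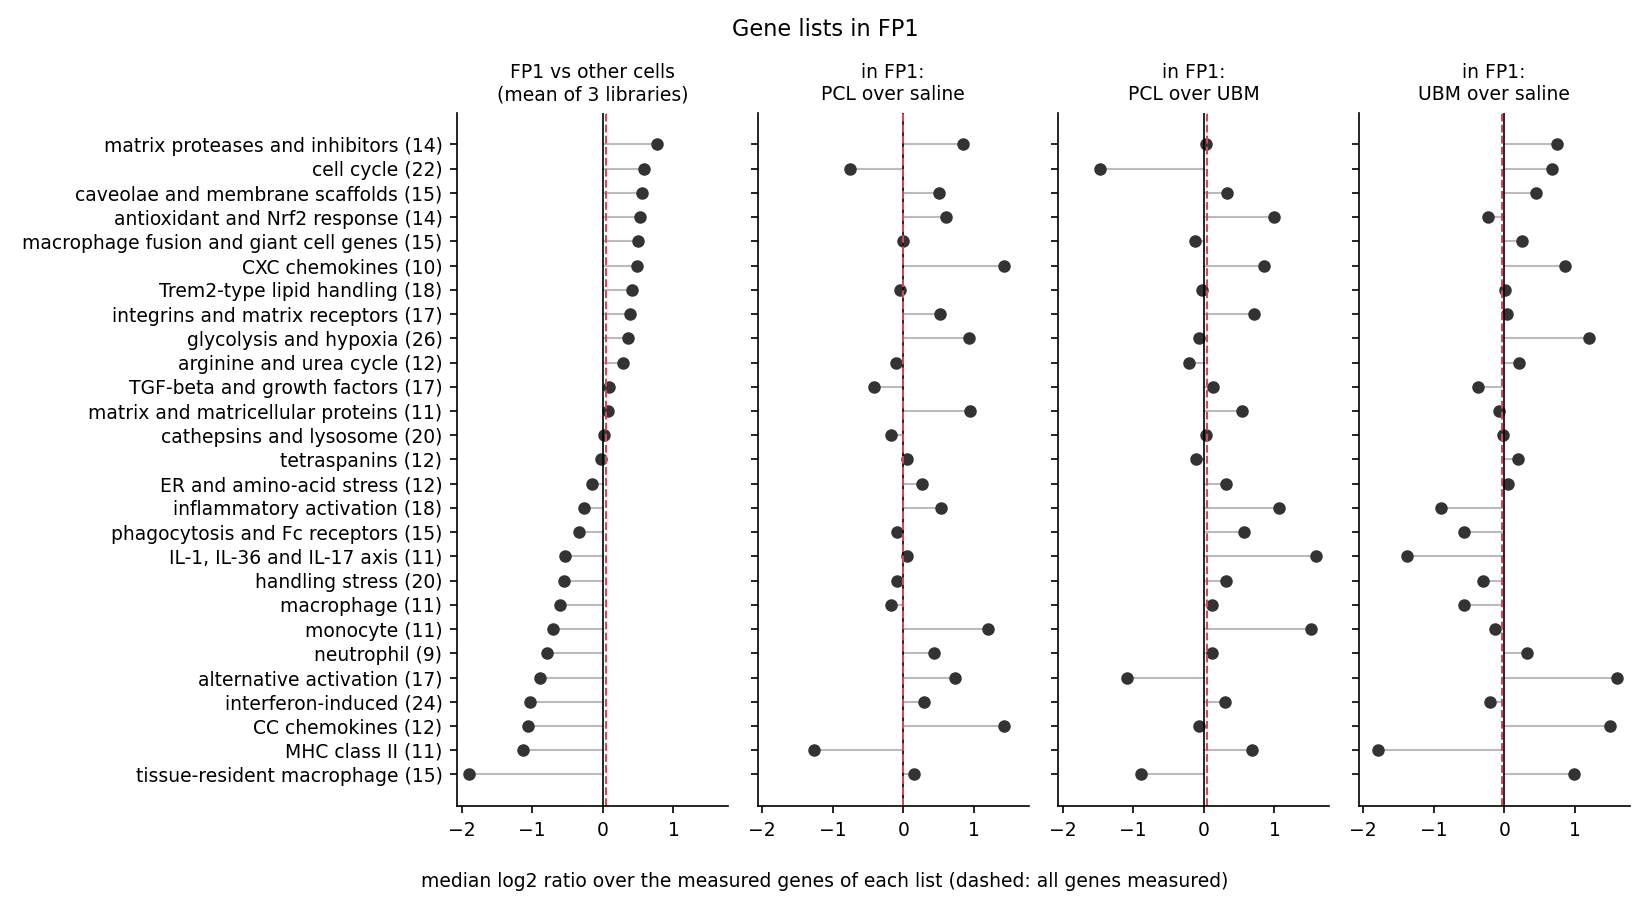
Median log2 ratio of each gene list with 5 or more measured members in all comparisons (number measured for FP1 against other cells in brackets), for FP1 against other cells and for the 3 pairs of libraries within FP1, with the median of all genes measured as a dashed red line. In the first panel resident macrophage genes lie farthest to the left, followed by MHC class II, CC chemokine and interferon genes, and matrix proteases lie farthest to the right.

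Cell cycle genes were higher in FP1 in every library for 12 of 22 (median 0.58), and their UMIs lay in few cells. Birc5, survivin, stood at 165, 81.9 and 11.5 CPM against 25.2, 22.1 and 8.25 CPM in the other cells of UBM, saline and PCL, and 1 cell held 50% of its saline UMIs. Hist1h2ap, a replication-dependent histone, stood at 363, 16.4 and 29.7 CPM against 84.8, 5.0 and 7.14 CPM. Without the 25 FP1 cells of a dividing sub-cluster the mean ratio was -0.43 for Hist1h2ap and the list median was -0.15.

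Levels within FP1 also differed between libraries, and the 3 pairs of libraries share their members, so each pair is given by its own values, for genes at 50 CPM or more in either library and with a UMI in at least 10 cells of the higher one. FP1 of PCL was at least 2-fold above FP1 of saline in 115 of 2740 genes (4.2%) and at least 2-fold below it in 62 (2.26%). Against UBM, FP1 of PCL was at least 2-fold higher in 144 of 2721 genes (5.29%) and lower in 83 (3.05%). FP1 of UBM was at least 2-fold above that of saline in 116 of 2759 genes (4.2%) and below it in 155 (5.62%). The saline group holds 72 cells, and single cells weigh on its values as given above.

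Most of these genes lay on the same side in the cells outside FP1. Of the 115 genes higher and the 62 lower in PCL than in saline FP1, 113 and 61 had the same sign between the other cells of those libraries, with 61 and 22 at least 2-fold. Of the 144 higher and the 83 lower in PCL than in UBM, 142 and 76 had the same sign, with 84 and 39 at least 2-fold. For UBM against saline, 98 of 116 and 150 of 155 did. In these 3 pairs, 0 of the genes were at least 2-fold on the opposite side in the other cells. Among all genes at 10 CPM or more, 1.95% were at least 2-fold higher and 2.004% lower in PCL than in saline in the other cells. These shares were 4.25 and 1.64% for PCL against UBM, and 2.27 and 4.38% for UBM against saline. Apart from the markers, the counts of list members in the other cells that follow stand against them. The share of all genes with the same sign in FP1 and the other cells was not computed, so the same-sign counts have no such measure.

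**Figure D4:**
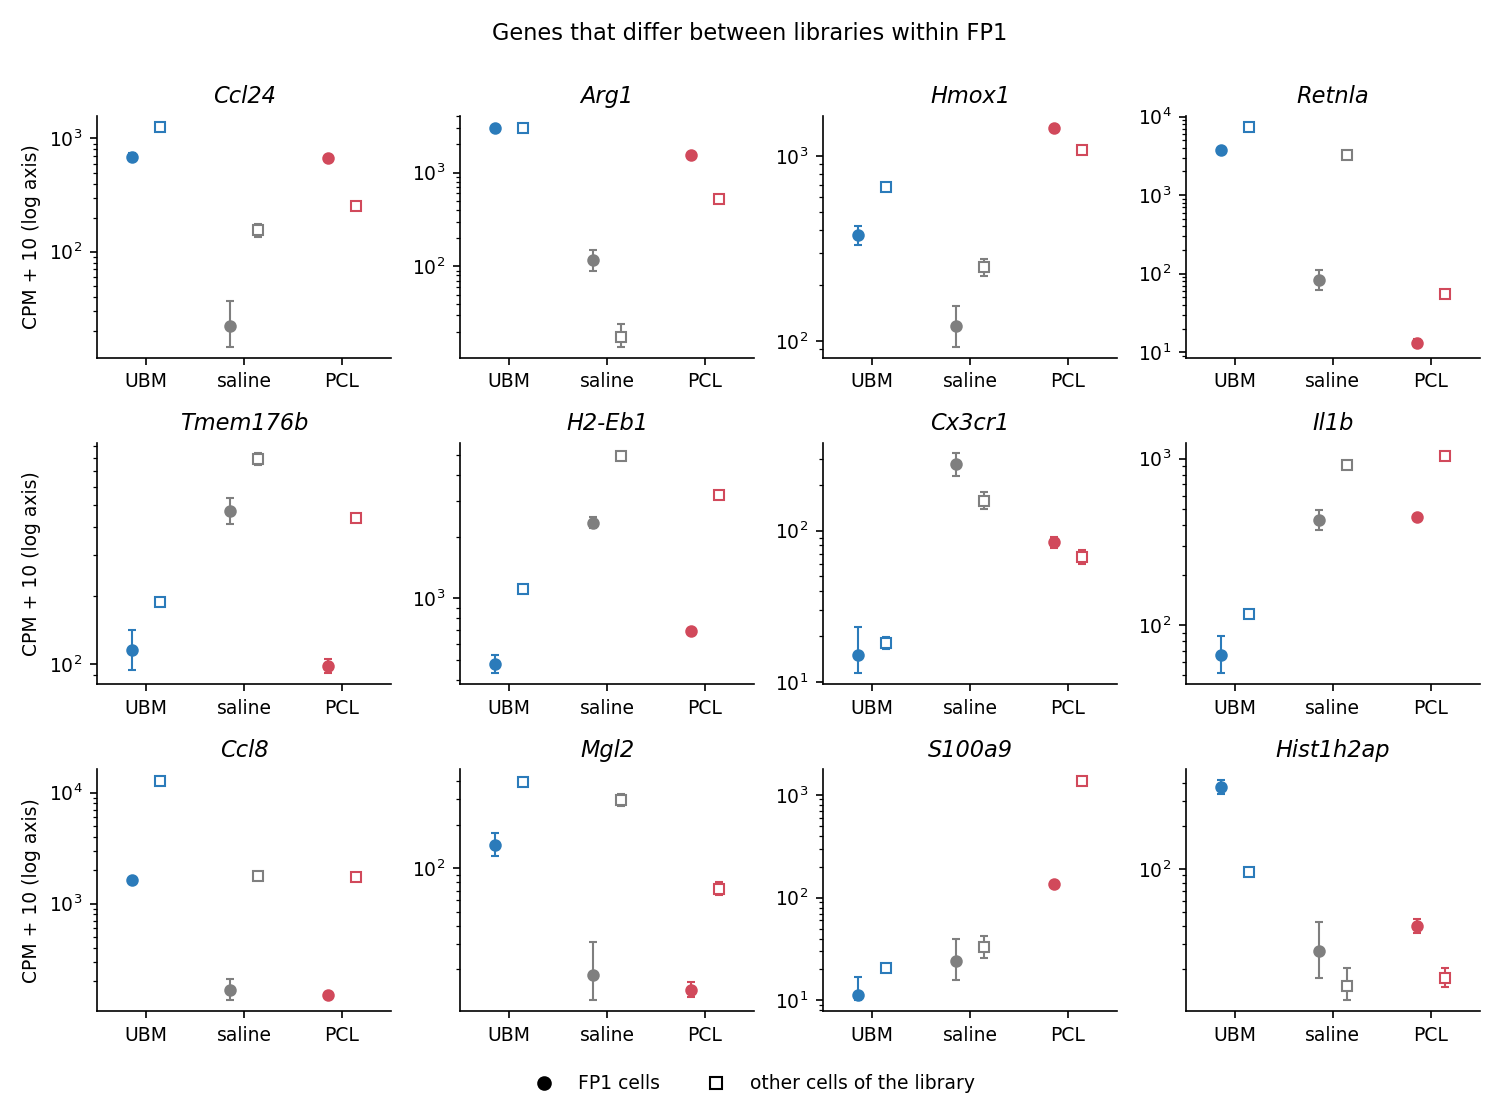
Levels in CPM plus 10 (log axis) of 12 genes that differ between libraries, in FP1 cells and in the other cells of UBM, saline and PCL. Retnla, Ccl8 and Mgl2 are highest in UBM in both groups of cells, and S100a9 is highest in PCL in both.

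The markers were higher in PCL FP1 than in saline FP1, and so they were outside FP1. Of the 8 markers, 6 were at least 2-fold higher in PCL than in saline FP1 (median log2 ratio 2.24), and in the other cells also 6 (median 1.82). Over UBM, 5 of the 8 passed 2-fold in FP1 (median 1.36) and 2 in the other cells (median 0.66). The markers define a cluster that came mostly from PCL, so these values describe it, and the 2.72% and 3.22% of all genes at the list minimum that were 2-fold higher over saline and UBM are no measure for them. Pdpn was 11.4-fold (7.38 to 18.7) above saline and 4.58-fold (3.67 to 5.78) above UBM, and Cav1 6.95-fold (4.13 to 12.8) and 4.65-fold (3.31 to 6.74). Spp1 was 4.14-fold above saline and 1.24-fold (1.21 to 1.27) above UBM, or 11.02-fold (9.96 to 12.2) and 1.78-fold (1.73 to 1.84) without the FP1 cell with the most Spp1 UMIs in each library, and Sdc1 was 1.12-fold (0.807 to 1.60) above saline. Among the genes farthest above saline FP1 were Hmox1, 12.7-fold (9.70 to 16.9) higher, Ppbp at 379 against 20.5 CPM, and Hbb-bs, a haemoglobin gene, at 164 against 2.05 CPM. The 2 measured platelet markers were both at least 2-fold higher in PCL than in saline, with a median of 2.68 in FP1 and in the other cells alike, and 4 of 4 erythroid genes were 2-fold higher in FP1 (median 2.53). Ccl24, the chemokine eotaxin-2, stood at 676 CPM in UBM, 12.3 CPM in saline and 666 CPM in PCL. In the other cells it stood at 1241, 144 and 245 CPM, so FP1 of PCL was above the other cells of its library while FP1 of UBM and saline lay below theirs, and FP1 of PCL and UBM held nearly the same level.

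Against UBM, the genes farthest up in PCL FP1 included inflammatory ones. Clec4n, the C-type lectin dectin-2, stood at 833 CPM in PCL and 26.5 CPM in UBM, 31.5-fold (20.6 to 50.9) higher. Cebpb, a transcription factor of myeloid cells, stood at 2410 against 310 CPM. Il1b was 7.65-fold (5.70 to 10.5) higher in PCL. S100a9, a calcium-binding protein of neutrophils and monocytes, stood at 126 CPM in PCL FP1 and at 1.26 CPM, 1 UMI, in UBM FP1, while the other PCL cells held 1338 CPM. Of 16 genes of inflammatory activation, 9 were at least 2-fold higher in PCL than in UBM FP1, with a median of 1.06 against 0.05 over all genes measured, and 7 of 14 antioxidant genes were (median 0.99). In the other cells, 9 of 17 inflammatory genes passed 2-fold in the same comparison, with a median of 1.22. Monocyte markers moved with them: 5 of 9 were at least 2-fold higher in PCL than in UBM FP1 (median 1.52), and 7 of 11 in the other cells (median 2.42). Erythroid genes, Hbb-bs first among them at 164 against 2.52 CPM, were 2-fold higher in FP1 for 4 of 4 (median 2.67), and 1 cell held 65.3% of their PCL FP1 UMIs. Without that cell their summed level in PCL FP1 was 98.4 CPM. An erythroid UMI was found in 43.3% of PCL and 2.02% of UBM FP1 cells. The part of these monocyte and erythroid genes in the inflammatory ones was not tested. The share of all 7391 genes at the list minimum that were at least 2-fold higher was 3.22%.

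Genes of alternative activation were highest in UBM FP1. Retnla was 1297-fold (829 to 2158) higher in UBM than in PCL FP1 and 51.3-fold (37.0 to 73.4) higher than in saline FP1. Without the 1 UBM cell that held 46.3% of its UMIs there it was 714-fold (456 to 1190) and 28.2-fold (20.3 to 40.5) higher. Ccl8 was 11.6-fold (10.6 to 12.6) higher than in PCL, and Mgl2 was 30.6-fold higher than in PCL. Of 15 alternative activation genes, 9 were at least 2-fold lower in PCL than in UBM FP1, with a median of -1.09. In the other cells 8 of 17 were at least 2-fold lower in the same comparison, with a median of -0.83. Cell cycle genes were at least 2-fold lower in PCL than in UBM FP1 for 18 of 22 (median -1.47). In the other cells 0 of 13 were (median -0.35). The dividing sub-cluster held 11 of the 99 UBM and 9 of the 1036 PCL FP1 cells, and its part in this difference was not tested. Over all 7391 genes the share at least 2-fold lower in PCL than in UBM FP1 was 2.45%. Hbegf, an epidermal growth factor family ligand, was 13.5-fold higher in UBM than in PCL.

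Saline FP1 held more antigen presentation genes. MHC class II genes were at least 2-fold lower in PCL than in saline FP1 for 7 of 10 (median -1.27) and at least 2-fold lower in UBM than in saline for 7 of 10 (median -1.79), against 1.62% and 4.03% of all genes at the list minimum. In the other cells 2 of 11 were at least 2-fold lower in PCL than in saline (median -0.54) and 9 of 11 in UBM (median -1.93). H2-Eb1 was 3.42-fold (3.20 to 3.65) higher in saline than in PCL. Cx3cr1, the fractalkine receptor, stood at 5.04, 264 and 73.7 CPM in FP1 of UBM, saline and PCL and was 52.4-fold (19.97 to 195) higher in saline than in UBM. Tmem176b, a membrane channel protein of myeloid cells, was 5.22-fold (4.45 to 6.10) higher in saline than in PCL. Genes of glycolysis and hypoxia were lower in saline FP1. Of 25, 11 were at least 2-fold higher in PCL (median 0.93) and 13 in UBM (median 1.203). The shares over all genes at the list minimum were 2.72% and 3.37%. In the other cells 13 of 25 were at least 2-fold higher in PCL than in saline (median 1.03) and 21 of 26 in UBM (median 1.76). Arg1 was 14.2-fold (10.8 to 19.0) higher in PCL and 27.7-fold higher in UBM than in saline.

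FP1 was itself divided when its cells were clustered alone. Sub-cluster 1 held 406 cells and was led by Tmem176b, Tmem176a, Ms4a7, Cx3cr1 and H2-Eb1. Sub-cluster 2 held 374 cells and was led by haemoglobin genes, Ltc4s, Ppbp, Egln3 and Arg1. Most of its cells held no haemoglobin UMI: Hba-a1, Hba-a2 and Hbb-bs were found in 27, 25 and 93 of the 374, and Arg1 in 338. Of the erythroid UMIs of PCL FP1, 65.3% lay in 1 cell, and 449 of the 1036 PCL FP1 cells held at least 1. Sub-cluster 3 held 231 cells and was led by Ccl24, Cxcl14, Slpi and Slc7a11. Sub-cluster 4 held 171 cells and was led by Retnla, Mmp12, Gpnmb, Ccl8 and Fabp4. Retnla had a UMI in 52 of the 171 cells. It stood at 5459 CPM in the 71 UBM cells of the sub-cluster and at 2.34 CPM in the 98 PCL cells. Sub-cluster 5 held 25 cells with dividing-cell genes such as Top2a and Birc5 and a median of 15499 UMIs per cell. These genes define the sub-clusters and are no result, and the sub-clusters are given no cell type names.

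**Figure D5:**
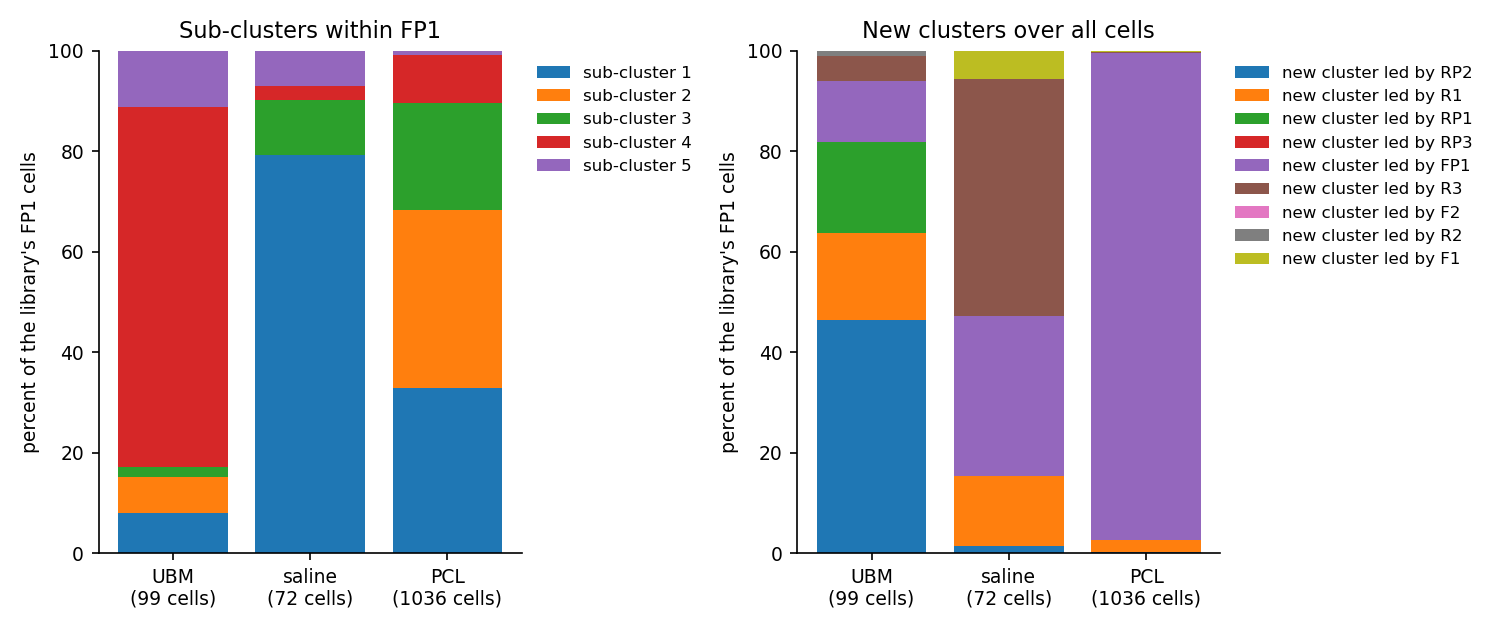
Share of the FP1 cells of each library in each sub-cluster within FP1 (left) and in each new cluster over all cells at a resolution of 0.6 (right). Saline FP1 is mostly sub-cluster 1, UBM FP1 mostly sub-cluster 4, and PCL FP1 is spread over sub-clusters 1 to 4.

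The libraries filled the sub-clusters unequally. Of saline FP1 cells, 79.2% (68.0 to 87.8%) were in sub-cluster 1. Of UBM FP1 cells, 71.7% (61.8 to 80.3%) were in sub-cluster 4 and 11.1% (5.68 to 19.0%) in the dividing sub-cluster 5. PCL FP1 cells were in sub-cluster 1 for 32.9% (30.1 to 35.9%), sub-cluster 2 for 35.4% (32.5 to 38.4%), sub-cluster 3 for 21.3% (18.9 to 24.0%) and sub-cluster 4 for 9.46% (7.75 to 11.4%). No saline cell was in sub-cluster 2, where a count of 0 in 72 cells has a floor of 4.17% and an exact upper limit of 4.99%. Genes that lead these sub-clusters also differ between the libraries, so the shares are a description.

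Within PCL, where each sub-cluster held at least 98 cells apart from the dividing one, markers differed between them. Spp1 stood at 5157 CPM in sub-cluster 1, 8850 CPM in 2, 11250 CPM in 3 and 16276 CPM in 4. Pdpn stood at 183, 702, 507 and 731 CPM and Cav1 at 91.1, 287, 282 and 168 CPM. Cxcl3 was high in sub-clusters 2 and 3 at 1084 and 1201 CPM and low in 1 and 4 at 135 and 199.9 CPM. Csf1r spanned 1.69-fold over the same sub-clusters. Of the genes given here for PCL, sub-cluster 1 had the lowest Spp1, Pdpn, Cav1 and Cxcl3 of the 4. The sub-clusters were made from the same cells' levels, so these values describe them, and the genes named above as leading a sub-cluster are left out.

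Library differences were then read within a sub-cluster, where enough cells allowed it. Sub-cluster 1 holds 57 of the 72 saline FP1 cells and sub-cluster 4 holds 71 of the 99 UBM FP1 cells. The genes of the whole-FP1 comparison were thus chosen in part from these same cells. How many of them recur within a sub-cluster is therefore a description and no independent check. In sub-cluster 1, 341 PCL cells were at least 2-fold above 57 saline cells in 103 of 2724 genes (3.78%) and below in 55 (2.02%). Of the 115 and 62 genes of the whole-FP1 comparison, 80 and 42 were at least 2-fold there and 113 and 61 had the same sign. Hmox1 stood at 1374 against 82.9 CPM, Spp1 at 5157 against 2422 CPM and Pdpn at 183 against 38.9 CPM in PCL against saline. In sub-cluster 4, 98 PCL cells were at least 2-fold above 71 UBM cells in 86 of 2593 genes (3.32%) and below in 55 (2.12%). Of the 144 and 83 genes of the whole-FP1 comparison, 59 and 35 were at least 2-fold there and 139 and 77 had the same sign. Pdpn stood at 731 against 140 CPM and Ccl8 at 175 against 2396 CPM. Il1b, higher in PCL over the whole of FP1, stood at 67.8 against 63.2 CPM within this sub-cluster, and Cxcl3 at 199.9 against 233 CPM.

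The clusters most like FP1, by the correlation of mean log2 levels across 2441 genes, were RP2 (r = 0.942) and R1 (r = 0.917) on the mean of the 3 libraries. R1 was not second in each library: in PCL, where it held 14 cells, its r was 0.857, below RP1 at 0.942 and F1 at 0.914, and in saline it was 0.856, below R3 at 0.888 and F1 at 0.880. The genes are not independent, the levels come from the same libraries, and no p is given. FP1 was at least 2-fold above RP2 in every library in 15 of 2615 genes (0.574%) and below it in 7 (0.268%). Cxcl3 stood at 299, 79.8 and 643 CPM in FP1 of UBM, saline and PCL against 44.1, 0 and 73.1 CPM in RP2. The saline 0, from 38 RP2 cells, has an exact upper limit of 17.9 CPM. By the mean of the 3 log2 ratios, AA467197, Hp, Ccl24 and Chil3 were the other genes farthest above RP2. Ccl8, Sepp1, Gas6, Wwp1 and Cbr2 were farthest below it by that mean. Not all of them passed 2-fold in every library. The log2 ratio was 0.59 for Ccl24 and 0.98 for Chil3 in saline, and -0.71 for Cbr2 in PCL. Against R1, 19 of 2706 genes were at least 2-fold higher in FP1 in every library (0.702%) and 48 lower (1.77%). Spp1 stood at 1717, 65.9 and 868 CPM in R1, so it separated FP1 from R1 more than from RP2. Retnla, Mgl2, Cd209a, Ccnd2 and Ccl17 were the genes farthest below R1.

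Read over only the 818 FP1 cells that also fell in the large FP1-led new cluster at a resolution of 0.8, 11 of UBM, 10 of saline and 797 of PCL, 50 of 2752 genes were at least 2-fold higher than in the other cells in every library (1.82%) and 81 lower (2.94%). Over the 1039 FP1 cells of the FP1-led new cluster at 0.6, 12 of UBM, 23 of saline and 1004 of PCL, 38 of 2725 genes were at least 2-fold higher than in the other cells in every library (1.39%) and 68 lower (2.5%), with small numbers of cells behind the UBM and saline levels. Pooled over libraries, 81 of 2634 genes were at least 2-fold higher in FP1 (3.08%) and 92 lower (3.49%). This pooled ratio mixes cluster and library. PCL gave 1036 of the FP1 cells, while the other cells numbered 2181 in UBM, 269 in saline and 717 in PCL.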

How the data were processed

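The authors deposited 1 table of UMI counts per gene and cell (13242 genes, 4374 cells) with an annotation that gives each cell's condition and cluster. Reads were processed with Cell Ranger per the submitters' processing notes, and per the labels' design text the cells of all conditions were pooled, normalised, scaled and clustered with Seurat. The labels name hg38, a human build, although the data are from mouse. The genome build used for counting is thus not given with certainty in the sources used here, so no coordinate of theirs is printed. FP1 is that annotation's label, and its members and the gene lists were chosen with earlier results of these data known. Counts were summed over the cells of a group in each library and given per 1000000, and log2 ratios used 10 CPM added to each level. A gene was compared with the other cells at a mean of 50 CPM over libraries in either group, between libraries at 50 CPM in either and UMIs in 10 cells of the higher one, and as a list member at 10 CPM in any group. Named genes were the 20 highest and 10 lowest by the mean log2 ratio among genes on the same side in all 3 libraries, 10 per direction for each pair of libraries, 5 per direction against the 2 most similar clusters, the markers and a fixed set, with mitochondrial and ribosomal protein genes left out. List members outside that rule were named as examples after their values were seen. Intervals were exact Poisson, conditional binomial and Clopper-Pearson intervals at 95%, and a floor was 3 UMIs for a group. Shares of cells were thinned by hypergeometric expectation at 2500 UMIs. Cells were clustered anew with the Leiden method. Tools were Python 3.11.15, numpy 2.4.6, scipy 1.17.1, pandas 2.3.3, scanpy 1.11.5, and edgeR 4.0.16 in R 4.3.3 for trimmed-mean scaling. On simulated data with 100 genes raised and 100 lowered, 98 and 86 were recovered for FP1 against other cells (2406 genes). The simulated counts were Poisson draws at the summed rates of the other cells. Spread between cells, such as 1 cell that holds most UMIs of a gene, was not in them, so recovery under such spread is not known. Alternatives covered scaling, the value added, minimum levels, cell filters, clustering and the libraries used. Of the named genes, 1 is not reported here.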

Additional observations from a re-analysis of the deposited data

How the results depend on the processing

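Of the counts and shares, 78 of the alternative values lay near the reported one and 36 did not. The share of cells in FP1 in UBM, saline and PCL was 0.614, 2.93 and 49.8% with cells clustered anew at resolution 0.8 and 0.658, 6.74 and 63.8% at 0.6, an alternative added after seeing the data. Genes at least 2-fold higher and lower in FP1 in every library numbered 21 and 59 with 1 CPM added, 50 and 81 over FP1 cells that clustered together again at 0.8, 38 and 68 at 0.6, 81 and 92 with libraries pooled, and 35 and 90 without the UBM library. Those higher numbered 20 with each cell weighted alike, 22 without the saline library and 24 without the PCL library. With no minimum CPM, genes higher and lower numbered 202 and 120 for PCL against saline, 238 and 181 for PCL against UBM, and 255 and 305 for UBM against saline. Over cells that clustered together again at 0.8 the same pairs gave 314 and 3, 480 and 12, and 27 and 10. At 0.6, 23 genes were lower in PCL than in saline, 404 higher and 15 lower in PCL than in UBM, and 39 higher in UBM than in saline. With ribosomal protein genes and Malat1 left out of the total, 126 genes were lower in PCL than in UBM. The cause of these moves was not tested, beyond the fewer cells and genes that some settings leave.

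Log2 values changed sign in few cases, 6 of the list medians and 8 of the named genes. Of the other alternative values, 135 of list medians and 218 of named genes did not lie near the reported one, and 1244 and 1826 did. The sign changes were as follows. Over cells clustered together again at 0.8 and 0.6, Birc5 was -1.36 and -1.36, Hist1h2ap -0.75 and -0.99 and the cell cycle median -0.56 and -0.49. Without the dividing sub-cluster, left out after seeing the data, Hist1h2ap was -0.43 and the cell cycle median -0.15. At 0.6, Cd72, muscle fibre and cell cycle genes were at 0.074, 0.11 and 0.14 for PCL over saline. The neutrophil median was 0.032 without F2 and R3 among the other cells, and Il1b and Arg1 were 0.074 and -0.48 with libraries pooled. Trimmed-mean scaling moved the median of all genes from -0.00 to 0.13 for PCL over saline FP1 and from 0.08 to -0.02 for FP1 over other cells. No paired analysis was possible because each condition has 1 library. With 72 saline and 99 UBM cells in FP1, levels under 6.14 and 3.78 CPM could not be told from 0, and condition and library cannot be told apart.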

Other observations

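Genes of uptake and digestion were split in FP1. Of 15 measured genes of phagocytosis and Fc receptors, 9 were lower in FP1 than in the other cells in every library, with a median log2 ratio of -0.34. Fcgr3, a low-affinity receptor for antibody, stood at 301, 360 and 316 CPM in FP1 of UBM, saline and PCL against 609, 676 and 583 CPM. The complement gene C1qa stood at 1511, 2586 and 1115 CPM against 2774, 4047 and 2370 CPM. Msr1, a scavenger receptor for modified lipoproteins, was on the other side at 129, 141 and 268 CPM in FP1, with log2 ratios of 0.32, 1.11 and 0.31 over the other cells. The list of cathepsins and lysosomal genes had a median of 0.02, with its members on opposite sides. Ctsl, cathepsin L, stood at 5068, 1642 and 3049 CPM against 3046, 455 and 1474 CPM, and 46.3% of its saline UMIs lay in 1 cell, without which the level was 928 CPM. Ctsc, cathepsin C, stood at 291, 919 and 846 CPM against 562, 1331 and 1784 CPM. These genes were chosen from their lists after their values were seen.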
